A study of Oryza sativa with 12 samples.

Results

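Transcript signals of rice embryonic axes labelled 4H were compared with those labelled 0H, both from control seed kept at 25 °C. The comparison takes 6 of the 12 Affymetrix Rice Genome arrays of the series, 3 of each label, and 17650 of the 57381 probe sets. A probe set was used if it was no array control and lay above a log2 signal of 4 in at least 3 of the 12 arrays. All seed was of the cultivar Nipponbare and was held for 3 days at 25 °C and 85% relative humidity, then for 14 days (15 days in the sample descriptions) at 25 °C and 85% relative humidity, and last for 3 days at 32% relative humidity. The other 6 arrays are the same pair of labels from seed held at 40 °C in the middle step, a treatment that the labels describe as lowering seed vigor. Per the labels, 64, 39 and 56 µg of RNA were obtained for the 4H replicates, against 26, 32 and 55 µg for the 0H replicates, and 20 µg of cRNA was made from each. The labels neither define 4H and 0H nor say whether the replicates came from separate seed lots, so the p-values refer to the variation among these arrays, and it may be purely technical. The tissue label reads seed, the growth protocol names the embryonic axis and the description speaks of embryos.

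As background, the axis of a mature cereal seed survives drying and holds messenger RNAs that were stored while the seed matured, among them those of late embryogenesis abundant (LEA) proteins, heat shock proteins and other protective proteins. When a seed takes up water, respiration and protein synthesis resume, part of the stored messages is degraded, and new transcription begins. Genes for sugar use, wall loosening and hormone breakdown are known to be switched on early in germinating cereal embryos, while those of DNA replication and photosynthesis are known to come later.

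Each value below is a deposited log2 signal, and a change is the 4H mean minus the 0H mean on that scale, so that 1 stands for a 2-fold difference. The signals were normalized across arrays by the authors and are therefore relative to the rest of the RNA, and fewer cells of a type and less RNA per cell cannot be told apart in them. A gene is said to rise or fall only where its adjusted p (limma, Benjamini-Hochberg over all 17650 probe sets, two-sided) was under 0.05. If every array of the lower label was under log2 4, the size is written as at least the higher label's mean over log2 4. That bound comes from the filter and no background was measured for it. Signals of different probe sets are not set against each other.

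The axes differed far more between the labels than among replicates. Correlations across the kept probe sets were 0.982 to 0.994 among the 4H arrays and 0.985 to 0.992 among the 0H arrays, against 0.678 to 0.707 between a 4H and a 0H array. The median SD was 0.145 in the 4H group and 0.138 in the 0H group. 4H replicate 3 stood farthest from its group's median in 52% of the probe sets and 0H replicate 3 in 44.6%. The 18S rRNA controls read 11, 11.1 and 6.82 in the 4H arrays, against 11.9, 11.9 and 11.5 in the 0H arrays (exact permutation p = 0.1, the smallest that 3 against 3 arrays allow, adjusted p = 0.267 over 8 control measures). The 3′ minus 5′ difference of the Actin controls was 2.97 ± 0.16 at 4H and 2.44 ± 0.06 at 0H (SD, n = 3 each, exact permutation p = 0.1), and that of the Gapdh controls was 2.34 ± 0.09 at 4H and 2.24 ± 0.17 at 0H (exact permutation p = 0.5). The part of these control differences in the results was not tested.

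The tissue markers fixed for the axis were present. All 5 embryo and axis markers that matched a probe set, of 10 listed, lay above log2 4 in all 6 arrays, and their summed log2 signal was 48.1 to 48.7 at 4H, against 45.5 to 45.7 at 0H. Within that sum WOX11 and OsVP1 rose, by 2.36 and 1.65, and Emp1, RAB21 and OSH1 fell, with changes of -0.27, -0.35 and -0.58. The 2 green tissue markers that matched, RBCS1 and CAB2R, stayed under log2 4 in all 12 arrays, the highest value being 1.70. Endosperm markers were also read: 6 of the 8 matched lay above log2 4 in every array, and their sum was 44.5, 48.3 and 52.4 in the 4H replicates, against 44.5, 46.7 and 51.5 in the 0H replicates. That sum differs more among replicates of a label than between the labels. GLUA3 and GluB4, 2 glutelin genes of that list, lay below log2 4 in all 12 arrays.

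Of the 17650 probe sets, 14457 (81.9%) were called, with 7044 (39.9%) higher and 7413 (42%) lower at 4H. In 14462 (81.9%) the 3 arrays of one label all lay above the 3 of the other. Over 2-fold differences were called in 7741 (43.9%), 4214 (23.9%) of them higher and 3527 (20%) lower. The median change over all probe sets was -0.04, and centring each array on its median moved it to -0.14.

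Rises reached further than falls. Among called probe sets 1962 were over 4-fold higher and 776 over 4-fold lower, 937 were over 8-fold higher and 126 over 8-fold lower, and 451 were over 16-fold higher and 10 over 16-fold lower. Over 32-fold, 193 were higher and 0 lower. These counts use signals below log2 4 as deposited. With all such values set to 4, 434 were over 8-fold higher and 76 over 8-fold lower, and 56 were over 32-fold higher and 0 lower. In 1632 probe sets all 3 arrays of 4H and no array of 0H lay above log2 4, and in 899 the reverse held. Probe sets of this kind that passed the filter through one label had to differ, and among the 12601 that lay above log2 4 in all 6 arrays 34.7% were over 2-fold different. The plot of group means shows this spread.

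**Figure D1:**
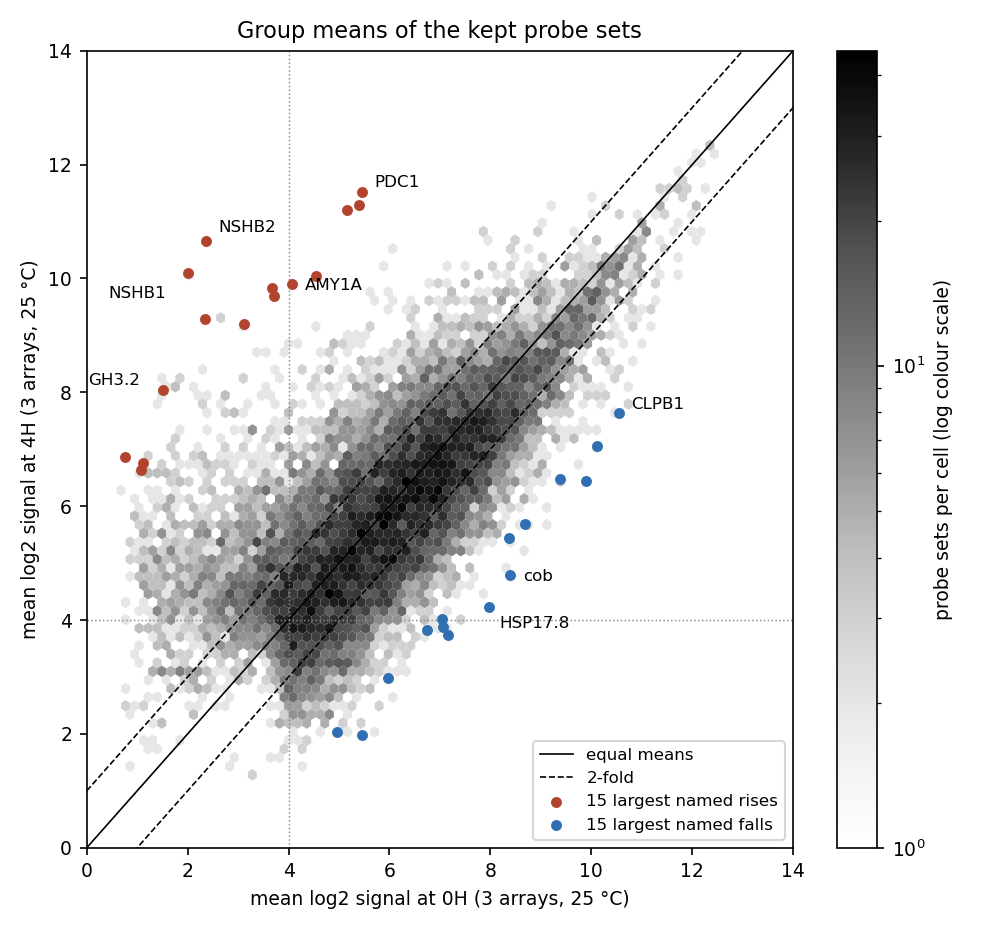
Mean log2 signal of each kept probe set at 4H (vertical axis) against its mean at 0H (horizontal axis), n = 3 arrays each at 25 °C, shown as shaded cells whose grey gives the number of probe sets on a log colour scale, with dashed lines at 2-fold, dotted lines at log2 4 and the 15 largest named rises and falls as points. The cloud of the 4214 probe sets over 2-fold higher reaches farther from the line of equal means than that of the 3527 over 2-fold lower.

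With 1 probe set for each gene (the one with the highest mean over the 12 arrays), 11516 genes were tested, of which 9630 (83.6%) were called, with 4667 (40.5%) higher and 4963 (43.1%) lower at 4H. In 9709 genes (84.3%) the labels did not overlap. Over 2-fold, 4998 genes (43.4%) were called, and 2728 genes (23.7%) were higher and 2270 (19.7%) lower, and the median change of all genes was -0.04. These shares are the background for the gene lists below. A list holds only genes whose symbol matched and that passed the filter. Members above log2 4 in all arrays of 1 label and in none of the other had to differ. List medians use signals below log2 4 as deposited, unless values set to 4 are named. Of 1331 genes with several kept probe sets, 92 had probe sets called in opposite directions, and 18 of those were over 2-fold in opposite directions.

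Among the 1656 tested genes with a usable symbol, the largest rises were those of the nonsymbiotic hemoglobins, plant proteins known to bind oxygen tightly and to remove nitric oxide when oxygen is short. NSHB2 (chromosome 3) read 10.65, 10.69 and 10.66 at 4H, against 3.4, 2.19 and 1.52 at 0H. Its rise was at least 102-fold (limma adjusted p = 6.82e-11). NSHB1 (chromosome 3) read 9.96, 10.08 and 10.23 at 4H, against 1.96, 2.12 and 1.92 at 0H, a rise of at least 68.1-fold (limma adjusted p = 2.22e-15). The NSHB1 probe set is of a type whose probes can match related transcripts. So are those of EXPB4, cob, HSP26.2, HSP18.8 and RA14, among other genes named below. The 4H and 0H arrays of both genes are separated by over 7 log2 units, and every 0H array lies below the filter limit.

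Enzymes that turn pyruvate into ethanol rose with them. PDC1, a pyruvate decarboxylase, read 11.72, 11.55 and 11.32 at 4H, against 5.26, 6.26 and 4.83 at 0H (log2 change 6.08, SE 0.25, limma adjusted p = 2.05e-11), which is 67.6-fold. Adh2, an alcohol dehydrogenase, read 8.76, 9.01 and 8.89 at 4H, against 4.45, 3.73 and 3.82 at 0H, a 29.6-fold rise. PDC2 was high in both groups, at 11.73, 11.73 and 11.62 at 4H, against 10.07, 10.15 and 10.05 at 0H, and rose 3.04-fold. In all, 5 of the 6 matched genes of fermentation and hemoglobins passed the filter and all 5 rose over 2-fold, with a median change of 6.08 beside -0.04 over all genes.

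Sucrose use showed the same kind of rise in named members. Sucrose synthases split sucrose into sugars that feed glycolysis and wall building. SUS3 read 10.76, 10.67 and 10.26 at 4H, against 5.63, 5.75 and 5.62 at 0H (29.8-fold, limma adjusted p = 2.43e-13). SUS1 rose 31-fold and Sus2 36.2-fold, and each of their 4H arrays lay over 3 log2 units above each of the 0H arrays. SUS4, another sucrose synthase, went the other way, reading 8.06, 7.82 and 7.93 at 4H, against 10.30, 10.31 and 10.10 at 0H, so that 0H was 4.94-fold above 4H. CIN1, a cell wall invertase, rose at least 3.42-fold, and the sucrose transporter OsSUT1 rose by 1.79 on the log2 scale. Of the 14 kept members of 21 matched, 11 rose and 3 fell, with a median change of 0.82.

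Glycolysis was mixed in its smaller members and led by FBA1. FBA1, an aldolase, read 11.48, 11.44 and 10.94 at 4H, against 5.34, 5.88 and 4.97 at 0H, a 59.2-fold rise (limma adjusted p = 2.97e-12). FRK1, a fructokinase, rose 4.94-fold and the enolase gene Eno1 rose 2.14-fold. GAPC1, a cytosolic glyceraldehyde phosphate dehydrogenase, fell, with a change of -0.47, whereas GAPC3 of the same family rose by 0.67 on the log2 scale. Counting all 12 kept genes of 14 matched, 7 rose and 4 fell, and 3 of the rises were over 2-fold, with a median change of 0.38.

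Genes listed under the tricarboxylic acid cycle and respiration fell more often than they rose. Of these 20 genes, all kept, 11 fell and 6 rose (median change -0.49), beside 43.1% lower and 40.5% higher over all genes. The subunit gene SDH2-1 of succinate dehydrogenase rose by 1.62, and ACLA-2 and ACLB-1, subunits of ATP citrate lyase, by 1.26 and 1.32. The latter pair was counted in this list although that enzyme is not part of the cycle. The electron transfer flavoprotein genes ETFA, ETFB and ETF-QO, which pass electrons from amino acid and lipid breakdown to the respiratory chain, fell, with changes of -1.24, -1.53 and -2.09. The largest fall of the list was that of cob, the apocytochrome b gene of the mitochondrial genome, at 4.32, 4.72 and 5.36 at 4H, against 8.37, 8.16 and 8.67 at 0H (change -3.60, SE 0.20, limma adjusted p = 3.12e-10). AOX1a, the alternative oxidase, rose at least 1.97-fold. Among 9 mitochondrial import and porin genes, 4 rose and 3 fell, with MIA40 highest at a change of 1.23.

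Genes of starch synthesis and of starch breakdown mostly fell. None of the 8 starch synthesis genes rose and 6 fell, 5 of them over 2-fold (median change -1.23, beside -0.04 over all genes). AGPS2, the small subunit of ADP-glucose pyrophosphorylase, read 4.99, 5.32 and 5.44 at 4H, against 7.34, 7.39 and 7.08 at 0H (change -2.02). SSII-2, SSII-1, Sbe1 and SSS1, synthases and a branching enzyme of starch, had changes of -1.72, -1.46, -1.37 and -0.99. GBSS1, the waxy starch synthase of the endosperm, had values of 6.47, 7.02 and 7.64 at 4H, against 6.08, 6.21 and 7.09 at 0H, and was not called (limma adjusted p = 0.0501). With the replicate number as a block it was called higher (limma adjusted p = 0.0282 on 12 arrays), as it was without 4H replicate 1 or without 0H replicate 3 (limma adjusted p = 0.00485 and 0.00236). The values of GBSS1 overlap between the labels and follow the replicate numbers, as the endosperm markers do.

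Among genes of starch breakdown, 2 of 8 kept rose and 6 fell, with the same median of -1.23. AMY1A, an alpha-amylase, read 10.12, 10.13 and 9.47 at 4H, against 3.91, 4.46 and 3.86 at 0H, a 56.9-fold rise (limma adjusted p = 1.21e-12). AMY3D rose at least 2.76-fold. AMY3A lay below log2 4 in all 4H arrays (1.69, 2.29 and 1.95), against 4.85, 5.60 and 5.90 at 0H, and fell at least 2.73-fold. AMY3E and the starch-handling genes DPE1 (a disproportionating enzyme) and GWD3 (a glucan, water dikinase) fell, with changes of -1.25, -2.26 and -1.94. The alpha-amylases thus differed among themselves in direction. AMY1A, AMY3D, AMY3E and GAMYB also form the list of aleurone and scutellum secretion markers, whose summed log2 signal was 28.9 to 31.1 at 4H, against 22.8 to 23.4 at 0H.

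**Figure D2:**
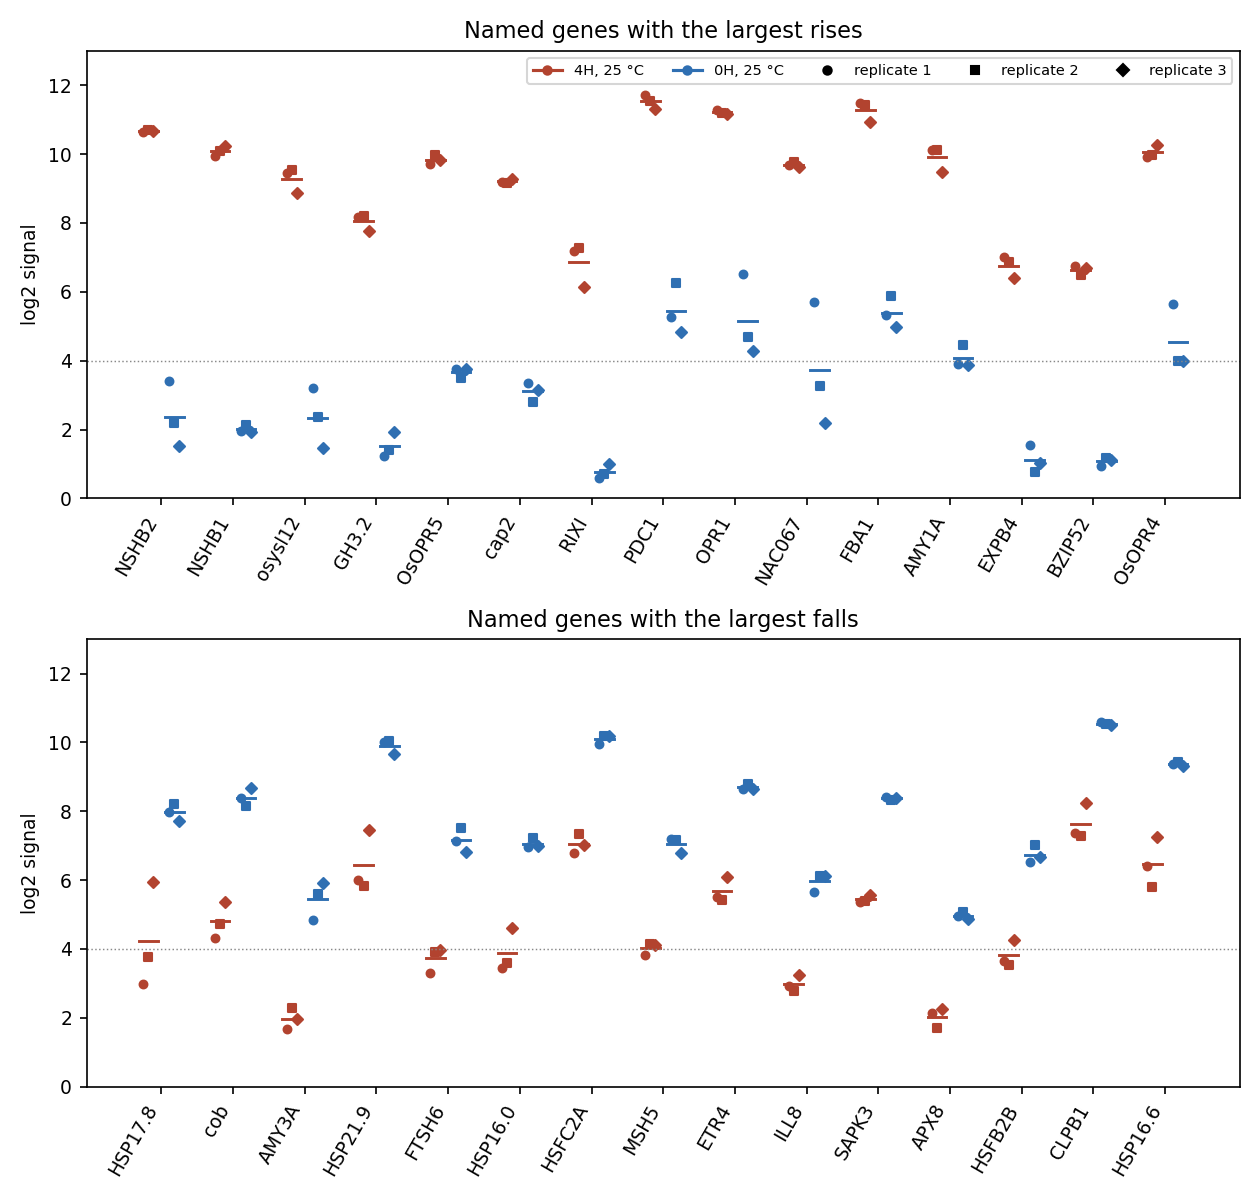
Log2 signals in each array at 25 °C of the 15 named genes with the largest rises and of the 15 with the largest falls, with 4H arrays left of 0H arrays for each gene, a symbol for each replicate, a bar at the group mean and a dotted line at log2 4. The labels do not overlap for any of these genes, which the choice of the genes required, and the 0H arrays of OPR1 and NAC067 spread over more than 2 log2 units.

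Most kept wall-loosening genes rose. Expansins loosen the wall of growing cells, and xyloglucan enzymes build and remodel the polymer that ties cellulose fibres. EXPB4 read 7.02, 6.87 and 6.39 at 4H, against 1.54, 0.78 and 1.02 at 0H, at least 6.76-fold (limma adjusted p = 7.79e-12). EXPA2 rose at least 6.2-fold and XTH8 at least 5.74-fold. EXPA7, which lay above the limit in all arrays, read 11.10, 11.15 and 10.67 at 4H, against 7.99, 8.06 and 8.11 at 0H (7.57-fold), and XXT1, a xyloglucan xylosyltransferase, rose 8.67-fold. The expansin-like genes EXLA1 and EXLA2 fell, with changes of -1.03 and -1.82. Of the 16 kept members of 31 matched, 13 rose and 2 fell, 11 of the rises over 2-fold, with a median change of 2.90. With values below log2 4 set to 4 that median was 1.63. The other 15 matched members lay below the filter. Members such as EXPB4 and EXPA2 passed it only through 4H and so had to differ, and with the filter at log2 6 the rises numbered 8.

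Cellulose synthases and related glycosyltransferases showed a similar count, with 13 of 17 kept members higher and 3 lower (median change 1.73, 30 matched). Their median was 1.03 with values below log2 4 set to 4. CESA1 and CESA5, catalytic subunits of cellulose synthase, rose by 2.66 and 1.73 on the log2 scale. CSLC7, of the cellulose synthase-like family, rose at least 7.67-fold, and the glucanase gene OsGLU1 rose by 2.46. KOB1, CSLA5 and CSLE2 fell, with changes of -1.28, -1.04 and -0.37. Of the 9 kept phenylpropanoid genes 6 rose and 3 fell. CCR1, a cinnamoyl-CoA reductase of the lignin pathway, rose 15.7-fold, and CHI, a chalcone isomerase, had a change of -1.45.

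Genes of the cytoskeleton rose more often than they fell. Of 10 kept tubulin genes 8 rose and 2 fell, led by TUBB4 at 8.13, 7.98 and 8.07 at 4H, against 5.58, 5.71 and 5.92 at 0H, with TUBB6 and TUBG2 the ones that fell. Of 23 kept actins and actin-binding proteins 14 rose and 8 fell, among them ACT2 with a change of 2.02, the formin gene FH13 with a rise of at least 4.64-fold and the Arp2/3 complex gene ARP3 with a change of -0.89. In the cell cycle list 14 of 25 rose and 6 fell. Those that rose with the lowest p were EL2, KRP1, CDKG-1 and CYCP3-1, with changes of 2.87, 2.08, 1.95 and 2.72. EL2 and KRP1 are known as inhibitors of cyclin-dependent kinases. CDKA-1, the main cell cycle kinase, read 6.35, 6.10 and 6.11 at 4H, against 6.33, 6.26 and 6.03 at 0H, and did not pass the test (limma adjusted p = 0.856).

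DNA replication genes went down. Of 18 kept members of 30 matched 16 fell, 8 of them over 2-fold, and 1 rose, with a median change of -0.95. The clamp loader subunits RFC2 and RFC4 had changes of -1.51 and -1.71, and the flap endonucleases FEN1A and FEN1B had -1.48 and -1.61. The exception was RPA1A, a subunit of the single-strand binding protein, at 8.23, 8.28 and 8.15 at 4H, against 6.75, 6.49 and 6.59 at 0H. PCNA, the sliding clamp, was not called (change 0.14). In DNA repair 9 of 13 kept members fell and 1 rose (median change -1.36). PARP3, a poly(ADP-ribose) polymerase, read 7.74, 7.81 and 8.02 at 4H, against 10.69, 10.85 and 10.71 at 0H, 7.43-fold above 4H. ROS1C, a DNA demethylase, NBS1 of the double-strand break complex and KU70 of end joining had changes of -2.56, -2 and -1.66. OsCPDII, the photolyase that repairs pyrimidine dimers, rose by 2.14. MSH5, known for its part in meiotic crossing-over, was among the largest falls, at 3.82, 4.13 and 4.11 at 4H, against 7.19, 7.17 and 6.79 at 0H.

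Aquaporins, the channels for water in the plasma membrane (PIP) and vacuolar membrane (TIP), mostly fell: 8 of 10 kept fell and 2 rose (median change -0.79), and 15 of the 25 matched lay below the filter. TIP3-2 read 3.91, 4.22 and 4.35 at 4H, against 6.59, 6.93 and 6.84 at 0H. TIP3-1, of the TIP3 type that is known from the protein storage vacuoles of seed, read 9.74, 9.87 and 9.90 at 4H, against 11.63, 11.75 and 11.55 at 0H. TIP1-2 and PIP1-2 had changes of -2.68 and -1.83. TIP4-1 and SIP1-1 rose by 1.05 and 1.35.

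Oxylipin genes had 3 of the 15 largest named rises. OPR genes encode reductases, one type of which makes the precursor of jasmonate. OPR1 read 11.27, 11.19 and 11.17 at 4H, against 6.51, 4.70 and 4.28 at 0H (66.1-fold, limma adjusted p = 1.29e-09). OsOPR5 read 9.70, 9.97 and 9.82 at 4H, against 3.75, 3.50 and 3.75 at 0H, at least 57-fold. OsOPR4 read 9.91, 9.96 and 10.27 at 4H, against 5.64, 3.98 and 4 at 0H (45.4-fold). All 3 lie on chromosome 6. JAR1, which joins jasmonate to isoleucine, rose by 1.70 and the lipoxygenase gene LOX5 by 1.41. AOC3 was not called. Of the 8 kept members of 19 matched 7 rose and none fell (median change 2.19). Below the filter lay AOS1, AOS2, AOS3 and AOS4 and the lipoxygenase genes LOX1.1, LOX2.1, LOX2, LOX3 and CM-LOX2. Whether OPR1, OsOPR5 and OsOPR4 are of the type that makes the jasmonate precursor was not tested. JAZ repressors of the jasmonate response, which are known to be switched on by that hormone, also rose: TIFY10A rose 21.6-fold, TIFY10B at least 7.88-fold and TIFY11B by 3.2 on the log2 scale. Of 13 jasmonate repressors and receptors 10 rose and 2 fell. Of the receptors, COI1B rose by 1.49 and COI1A fell, with a change of -0.67.

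Auxin genes were led by GH3.2, whose enzyme family joins auxin to amino acids. It read 8.17, 8.21 and 7.77 at 4H, against 1.22, 1.42 and 1.92 at 0H, with a bound of 4.05 on the log2 scale for its rise (limma adjusted p = 7.54e-13). GH3-8 rose by 4.65 on the log2 scale, and GH3.6 and GH3.4 at least 3.15-fold and 1.91-fold. Of the amidohydrolases that release auxin from such conjugates, ILL1 rose by 2.57, while ILL5, ILL7 and ILL8 fell, ILL8 at least 3.9-fold. The kept members of both kinds thus came to 5 rises and 3 falls. In auxin response 10 of 14 kept members rose and 4 fell (median change 0.86). IAA31, an Aux/IAA repressor, read 7.30, 7.34 and 7.24 at 4H, against 2.73, 2.2 and 2.47 at 0H, at least 9.81-fold, and IAA24 rose by 2.14. IAA21, IAA3, IAA17 and IAA10 of the same family fell, with changes between -0.60 and -1.43.

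Abscisic acid is the hormone that is known to hold seeds dormant. Of 24 genes of its synthesis and signalling, all kept, 18 fell and 5 rose (median change -0.36). ABA8OX1, an enzyme that breaks the hormone down, read 9.76, 9.63 and 9.42 at 4H, against 6.62, 6.38 and 6.23 at 0H, a 9.13-fold rise (limma adjusted p = 4.98e-12), whereas ABA8OX2 of the same family fell, with a change of -1.89. The SnRK2 kinases of the pathway split: SAPK3 read 5.35, 5.40 and 5.56 at 4H, against 8.41, 8.33 and 8.38 at 0H, and SAPK9 had a change of -2.2, but SAPK5 rose 9.08-fold and SAPK6 by 0.85. The receptor gene PYL5 and the transcription factor gene OsVP1 rose by 1.45 and 1.65. The phosphatase gene PP2C68 and the factor gene BZIP23 fell, with changes of -1.86 and -1.31.

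Among dormancy and germination regulators 9 of 13 kept fell and 4 rose. LFL1, of the family of embryo maturation factors, read 1.24, 1.56 and 1.18 at 4H, against 4.06, 3.93 and 3.39 at 0H, with both means under the limit, so no size is given. MFT2, of the MOTHER OF FT family, read 10.46, 10.21 and 10.68 at 4H, against 11.55, 11.50 and 11.48 at 0H. MYBS2, a factor that binds amylase promoters, rose by 1.49, MYBS3 fell with a change of -0.82, and GAMYB rose by 0.81.

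Gibberellin genes gave 4 rises and 3 falls among 8 kept. The growth repressor SLR1 and the receptor gid1 rose by 1.24 and 0.66, and OsKS1A and OsKO2, named for early steps of the synthesis of gibberellin-type diterpenes, fell at least 4.31-fold and 2.77-fold. The ethylene receptors ran in opposite directions. ETR2 read 8.15, 8.18 and 8.16 at 4H, against 3.59, 2.80 and 3.33 at 0H, a rise of at least 4.16 on the log2 scale, while ETR4 read 5.52, 5.43 and 6.09 at 4H, against 8.66, 8.79 and 8.64 at 0H (change -3.01). In the ethylene list 5 of 7 rose and 1 fell.

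Brassinosteroids are growth hormones, and 8 of 9 kept genes of their synthesis and response rose, 6 over 2-fold (median change 1.14), while the kinase gene GSK1 fell. DWARF, an oxidase of the last steps of synthesis, read 8.54, 8.78 and 8.01 at 4H, against 4.56, 5.01 and 4.89 at 0H (12.3-fold). The receptor gene BRI1 and its partner OsBAK1 rose by 1.23 and 1, and the kinase gene GSK2 rose at least 4.68-fold. Cytokinin genes gave 5 rises and 4 falls among 12, with OsRR6, a response regulator, 13-fold higher at 4H.

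Kinases and other signalling genes were read in several lists. Of 33 kept calcium-dependent and CBL-interacting kinases 23 rose and 8 fell (median change 0.89). CPK13 rose 10.4-fold, CPK7 8.04-fold and CIPK25 at least 4.29-fold, and CPK12 had a change of -2.2. In the calmodulin family 7 of 17 rose and 6 fell, with CML7 at 6.93-fold and CML16 at a change of -2.19. Of 13 kept MAP kinase genes 7 rose and 5 fell, with MPK14 10.5-fold higher and MPK16 at a change of -2.46.

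Of 9 kept WRKY and NAC factors 7 rose and none fell (median change 2.59, 14 matched). The median was 1.68 with values below log2 4 set to 4. NAC067 read 9.67, 9.78 and 9.62 at 4H, against 5.70, 3.27 and 2.19 at 0H. Its 0H arrays spread more widely than those of the other largest rises, and the change of 5.97 (SE 0.56, limma adjusted p = 1.25e-07), which is 5.12 with values below log2 4 set to 4, was between 5.2 and 6.96 when one 0H array was left out. WRKY71, known as a repressor of gibberellin signalling in rice aleurone, rose by 2.59, and WRKY24 and WRKY76 rose at least 5.5-fold and 3.2-fold. Stress-associated zinc finger (SAP) genes gave 9 rises and 1 fall among 11, led by SAP17 and SAP11 with changes of 3.65 and 3.48. DREB1B, a cold-response factor, read 7.73, 7.78 and 8.74 at 4H, against 4.92, 2.87 and 3.04 at 0H, a rise of 3.78 on the log2 scale with values below log2 4 set to 4, and 3 of the 4 kept DREB genes rose. BZIP52 read 6.75, 6.49 and 6.69 at 4H, against 0.93, 1.16 and 1.12 at 0H, at least 6.24-fold. Among 11 bZIP genes 5 rose and 4 fell.

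Homeobox and meristem factors gave 16 rises and 7 falls among 26 kept of 50 matched (median change 0.59). WOX11, known for its role in crown root growth, read 8.23, 8.25 and 8.16 at 4H, against 5.90, 5.72 and 5.93 at 0H. WOX6 rose 6.47-fold, and QHB, a marker of the quiescent center of the rice root, passed the limit only at 4H (4.07, 4.07 and 4.42, against 1.61, 1.45 and 1.93 at 0H). With values below log2 4 set to 4 the change of QHB was 0.19 and not called (limma adjusted p = 0.0547). OSH1, a marker of the shoot meristem, fell, with a change of -0.58. HOS59, OsHox7, OsHox32 and OsHox4 also fell.

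Heat shock genes made up 7 of the 15 largest named falls, namely the small heat shock genes HSP17.8, HSP21.9, HSP16.0 and HSP16.6, the regulators HSFC2A and HSFB2B, and CLPB1. Small heat shock proteins hold unfolding proteins in solution. HSP21.9 read 6.02, 5.83 and 7.46 at 4H, against 10, 10.04 and 9.68 at 0H (change -3.47, SE 0.31, limma adjusted p = 6.35e-08). HSP17.8 read 2.98, 3.76 and 5.93 at 4H, against 7.99, 8.21 and 7.73 at 0H (change -3.75, SE 0.53, limma adjusted p = 1.04e-05). HSP26.2, whose replicates lay closer, read 7.32, 7.34 and 7.45 at 4H, against 9.24, 9.23 and 9.02 at 0H. In these 3 genes, and in HSP16.0 and CLPB1, 4H replicate 3 lay nearest to the 0H arrays. Without that array the change of HSP17.8 was -4.61, of HSP21.9 -3.98, of HSP16.0 -3.53 in place of -3.18, and of CLPB1 -3.22 in place of -2.91.

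Of 17 kept small heat shock genes of 18 matched, 15 fell, 12 of them over 2-fold, and 2 rose (median change -1.40, and -1.69 with the same counts without 4H replicate 3). The smallest fall was that of HSP16.9A, which read 11.56, 11.49 and 11.68 at 4H, against 11.78, 11.90 and 11.82 at 0H. The 2 that rose did so strongly. HSP17.9B read 8.89, 8.64 and 8.93 at 4H, against 5.32, 5.42 and 5.56 at 0H, a 10.5-fold rise (limma adjusted p = 2.29e-12), and HSP18.8 rose at least 8.91-fold.

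The heat stress transcription factors, the HSFs, gave 11 falls and 6 rises among 19 kept of 20 matched. Not all HSFs are known as activators of heat shock genes. HSFC2A read 6.8, 7.34 and 7.03 at 4H, against 9.94, 10.19 and 10.20 at 0H, and HSFB2B and HSFA6B had changes of -2.92 and -2.04. HSFA3 rose 16.4-fold, at 9.82, 9.89 and 10.16 at 4H, against 6.40, 5.65 and 5.72 at 0H. HSFA9, whose counterpart in sunflower is known as a factor of seed maturation, rose by 1.49, and HSFA1 was not called.

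Other chaperones were balanced, with 7 rises and 7 falls among 17 kept of 20 matched (median change -0.04). The disaggregases of the ClpB type fell together: CLPB1, the cytosolic HSP101, read 7.36, 7.28 and 8.24 at 4H, against 10.59, 10.52 and 10.51 at 0H, and CLPB-M and CLPB-C had changes of -2.23 and -1.10. The ClpC and ClpD genes CLPC1 and CLPD1 rose by 1.05 and 1.34. BIP1, the chaperone of the endoplasmic reticulum, read 10.42, 10.40 and 9.71 at 4H, against 8.06, 8.03 and 7.96 at 0H (4.46-fold). The HSP90 gene HSP81-2 was among the 5 named genes with the smallest change over log2 10, at 10.99, 10.91 and 10.91 at 4H, against 10.96, 10.99 and 10.86 at 0H. Among 10 protein disulfide isomerases 4 rose and 4 fell. FTSH6, a protease, lay below log2 4 in all 4H arrays (3.3, 3.92 and 3.98), against 7.14, 7.51 and 6.82 at 0H, at least 8.93-fold lower.

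**Figure D3:**
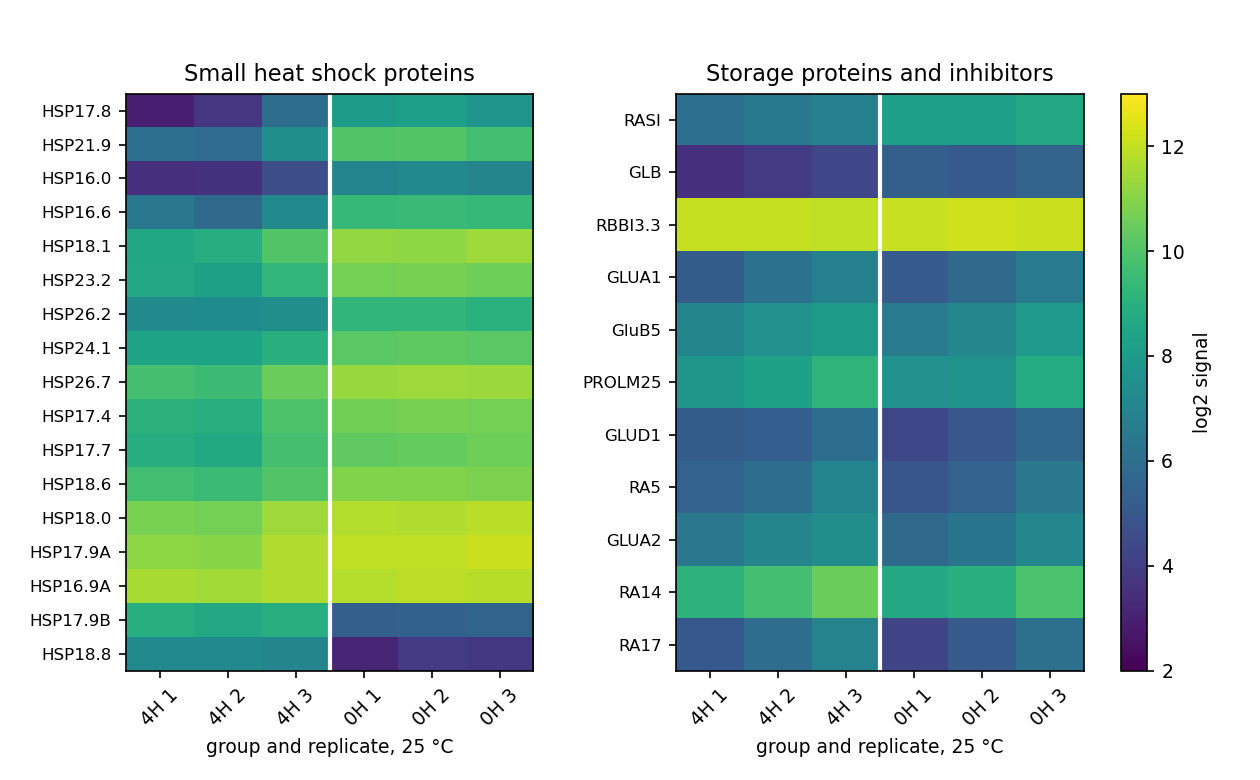
Log2 signal (colour) of the 17 small heat shock genes and the 11 storage protein and inhibitor genes in each array at 25 °C, 4H replicates left of 0H replicates. The heat shock genes change at the boundary between the labels apart from HSP17.9B and HSP18.8, which are brighter at 4H, while the storage genes other than RBBI3.3 are brightest in replicate 3 of both labels.

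All 10 genes of the LEA and dehydrin list fell. LEA proteins and dehydrins are known to protect dry cells. The list also holds R40C1 and OsPM19L1, which are neither. RAB16D read 7.69, 7.74 and 8.35 at 4H, against 10.13, 10.18 and 10.31 at 0H (4.85-fold above 4H), and R40C1 and LIP9 had changes of -1.19 and -1.14. Emp1, an embryo LEA gene, read 12.16, 12.13 and 12.28 at 4H, against 12.42, 12.44 and 12.51 at 0H, and RAB21 had a change of -0.35. The median of the list was -0.64, and 3 falls were over 2-fold. The fall of LEA19 (change -0.30) did not pass the test after quantile normalization.

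Storage protein and inhibitor genes, whose products fill the endosperm and aleurone, gave 2 falls and no call upward among 11 kept of 13 matched. RASI, an inhibitor of alpha-amylase and subtilisin, read 6.01, 6.46 and 6.83 at 4H, against 8.19, 8.19 and 8.62 at 0H. GLB, the globulin gene, had a change of -1.36. The other 9, among them glutelins and allergens of the seed, had changes between -0.13 and 0.80, none called. RA14 read 9.13, 9.72 and 10.52 at 4H, against 8.65, 8.99 and 9.87 at 0H (change 0.62, limma adjusted p = 0.0747). Within each replicate number the 4H array of RA14 is above the 0H array, but the groups overlap, and the sums of the endosperm markers given above differ in the same way among replicates. With the replicate number as a block on 12 arrays 5 of the 11 were called higher, RA14 among them (limma adjusted p = 0.00783). The count was 7 without 0H replicate 3, 5 without 4H replicate 1, and 0 without 4H replicate 3, where the median change was 0.11 in place of 0.45.

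Antioxidant enzymes fell more often than they rose, at 14 and 6 of 21 kept (median change -0.68). CAT-A, a catalase, read 5.66, 5.58 and 5.81 at 4H, against 7.96, 7.88 and 7.72 at 0H. APX8, a chloroplast ascorbate peroxidase, fell at least 1.95-fold, and the superoxide dismutase gene sodCp and the peroxiredoxin gene PRXIIF had changes of -1.79 and -2.06. RGRC2, a glutathione reductase, rose 4.28-fold, at 10.47, 10.55 and 10.54 at 4H, against 8.51, 8.37 and 8.39 at 0H. RMSOD1, a mitochondrial superoxide dismutase, rose by 1.19. Thioredoxins and glutaredoxins gave 13 rises and 13 falls among 31, with GRXS5 at a change of 3.85 and OsTrx26 at -1.97. Methionine sulfoxide reductases gave 2 rises and 3 falls among 6. In the synthesis of vitamins E and C, HPT1, the first committed enzyme of the tocopherol pathway, had a change of -1.88, and GME-1, an epimerase of the ascorbate pathway, rose by 1.86.

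Protein synthesis genes changed little in size. None of the 26 kept cytosolic ribosomal protein genes moved over 2-fold, although 16 fell and 1 rose (median change -0.28). The falls counted 21 after centring each array on its median and 13 after quantile normalization, so the count depends on how the arrays are scaled. Os60SP0p and RPL5A had changes of -0.70 and -0.47, and QM1 rose by 0.77. Of 20 genes of ribosome making and RNA processing 14 fell and 2 rose. Translation factors gave 4 rises and 5 falls among 14, and 2 rises and 8 falls after median centring. eIF-4A-3 rose 4.54-fold, at 10.73, 10.60 and 10.50 at 4H, against 8.28, 8.42 and 8.6 at 0H. Proteasome subunits gave 7 rises and 4 falls among 15 (median change 0.10), with PAD1 at 1.46. Of 7 autophagy genes 5 fell and 2 rose, ATG5 by 1.15 and ATG12 by 0.27. ATG12 was not called in most of the alternatives, among them leaving out any 0H array and the replicate number as a block (limma adjusted p = 0.0521 on 12 arrays).

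Chromatin genes gave 9 rises and 6 falls among 18, with SPT16 and SSRP1-B, the subunits of the histone chaperone FACT, in opposite directions at 1.04 and -1.61. Of 7 kept photosynthesis and chlorophyll genes 5 fell and 1 rose, while 13 of 20 matched lay below the filter. PORB, of chlorophyll synthesis, read 3.3, 3.18 and 3.39 at 4H, against 5.09, 5.11 and 5.09 at 0H, at least 2.14-fold lower. Of 12 clock and light genes 7 fell and 4 rose, with PCL1, a clock factor, at 9.62, 9.60 and 9.84 at 4H, against 7.05, 7.08 and 7.20 at 0H, and PRR37 and the photoreceptor gene PHYA with changes of -1.83 and -1.13.

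Smaller lists covered defence and transport. RIXI, a xylanase inhibitor, read 7.17, 7.27 and 6.13 at 4H, against 0.61, 0.70 and 1 at 0H, at least 7.25-fold higher, and the chitinase gene Cht3 rose at least 6.37-fold. Of 5 kept chitinase and pathogenesis-related genes 4 rose. PBZ1, a pathogenesis-related gene, was not called, at 8.39, 8.63 and 8.18 at 4H, against 8.56, 7.75 and 9.30 at 0H. Phosphate transporters of one family differed in direction: OsPht1;8 rose at least 3.25-fold, and OsPht1;4 fell at least 2.55-fold. osysl12, a yellow stripe-like transporter, read 9.46, 9.55 and 8.86 at 4H, against 3.2, 2.37 and 1.47 at 0H, at least 39.1-fold. cap2, listed by that symbol alone, rose at least 37-fold. MT1A, a metallothionein, rose by 2.73, whereas MT2A and MT2C fell, with changes of -0.46 and -0.65. The isocitrate lyase gene ICL of the glyoxylate cycle rose by 0.52, and 5 of the 9 genes of oil use and peroxisomes fell. TPP1, a trehalose phosphate phosphatase, rose at least 2.82-fold.

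**Figure D4:**
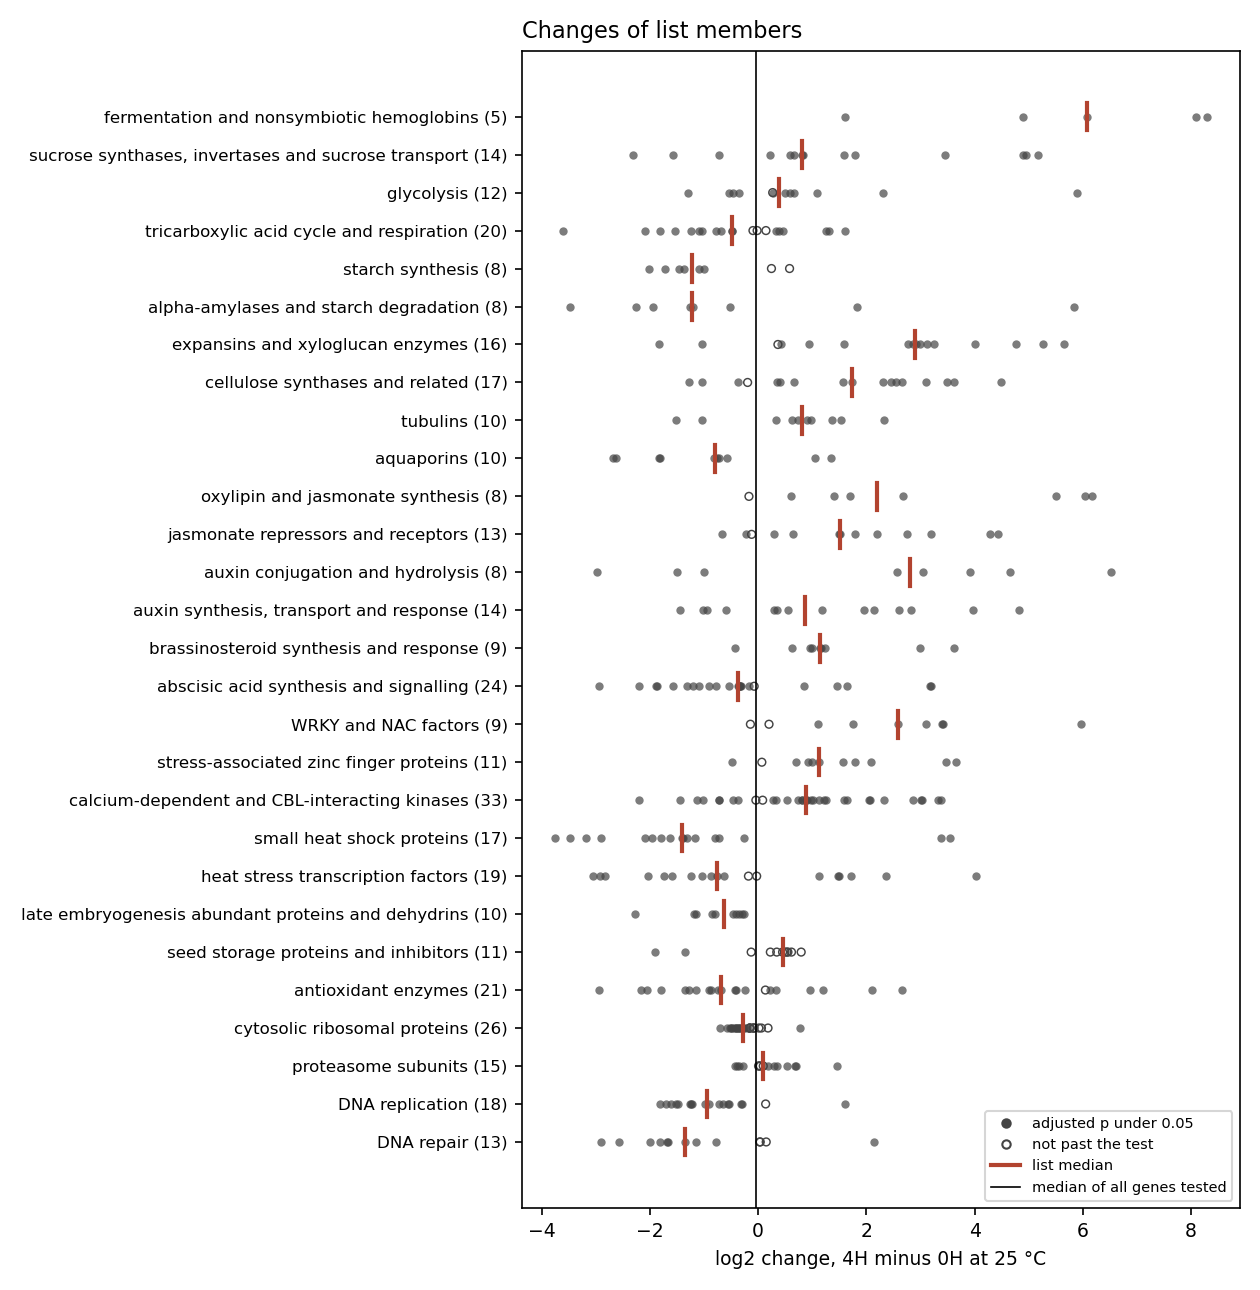
Log2 change at 25 °C (4H minus 0H) of each kept member of 28 gene lists (number of kept members in brackets), with filled points for called genes, open points for genes that did not pass the test, a red bar at the list median and a line at the median of all genes tested. The medians of the fermentation, wall and jasmonate lists lie to the right of 0 and the small heat shock, DNA repair and starch synthesis lists to the left, while most of the lists shown hold members on both sides.

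Changes near 0 were also found at high signal. Of 81 named genes with both means over log2 10, 16 changed by less than 0.1 and 6 by over 2-fold. TCTP read 11.81, 11.76 and 11.81 at 4H, against 11.73, 11.72 and 11.79 at 0H (limma adjusted p = 0.452). RPS27AB, a ribosomal protein gene, and BFRP had changes of 0.01 and 0.04, and ARF had one of -0.04. After quantile normalization TCTP, RPS27AB and ARF were called higher at 4H, with changes of 0.28, 0.14 and 0.17 (limma adjusted p = 0.000123, 0.0491 and 0.0202), so their place among the smallest changes depends on the scaling.

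The same pair of labels was measured in seed kept at 40 °C, with no array in common. Changes at the 2 storage temperatures correlated at 0.831 across the 17650 probe sets, which share arrays within each temperature and are no independent replicates. At 40 °C 87.2% of the probe sets and 88.5% of the genes were called. Both changes were called in 13014 probe sets, in the same direction in 12036 and in opposite directions in 978. The difference between the changes was called by limma in 11469 (65%). Among these, 3294 changed more in size at 25 °C and 8175 more at 40 °C (3472 and 7794 with values below log2 4 set to 4), and the median absolute change was 0.87 at 25 °C and 1.19 at 40 °C. Over genes the difference was called in 67.9%, and the change at 25 °C was the more positive one in 4937 (42.9%) and the more negative one in 2878 (25%).

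Hemoglobin and fermentation genes rose more at 25 °C. The change of Adh2 was 4.89 at 25 °C and 3.3 at 40 °C and that of PDC2 was 1.60 at 25 °C and 0.72 at 40 °C, and 4 of the 5 kept genes had a called, more positive change at 25 °C. The exception was PDC1, at 6.08 at 25 °C and 5.76 at 40 °C, whose difference of 0.32 was not called but was 0.72 and called without 25 °C 0H replicate 2 (limma adjusted p = 0.0101). The sucrose synthase gene SUS3 had changes of 4.90 at 25 °C and 2.13 at 40 °C. In its list 6 of the 14 genes were more positive at 25 °C, near the 42.9% over all genes. Another 4 were more negative, beside 25% over all genes. In expansins 10 of 16 were more positive and 2 more negative. EXPA29 rose at 25 °C, at 9.35, 9.28 and 9.04 at 4H, against 7.70, 7.54 and 7.67 at 0H, and fell at 40 °C (changes 1.59 and -2.27, difference 3.85, SE 0.15, limma adjusted p = 2.04e-09). Of 9 brassinosteroid genes 7 had a called, more positive change at 25 °C, with DWARF at 3.62 at 25 °C and 0.55 at 40 °C.

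WOX11 and OsYAB7 also changed in opposite directions, WOX11 by 2.36 at 25 °C and -1.41 at 40 °C and OsYAB7 by 1.68 and -1.69. The 4H mean of OsYAB7 at 40 °C was 2.89, and with values below log2 4 set to 4 its change at 40 °C was -0.58. The geranylgeranyl reductase gene CHLP, of chlorophyll and tocopherol synthesis, was not called at 25 °C (change 0.30, limma adjusted p = 0.0715) and fell at 40 °C, with a change of -2.96. With the replicate number as a block on 12 arrays CHLP was called higher at 25 °C (limma adjusted p = 0.0254), as it was without 4H replicate 3 (limma adjusted p = 0.00454) or without 0H replicate 1 (limma adjusted p = 0.0409). The group means of CAD3 and EXPB3 passed log2 4 only at 4H and 25 °C, at 5.44 and 4.48, against 2.29 and 1.41 at 4H and 40 °C. Storage genes had 10 of 11 differences called toward a more positive change at 25 °C, and 9 with values below log2 4 set to 4. Signals of most storage genes varied with the replicate number at 25 °C, as given above. Ribosomal protein genes had 24 of 26 called that way, with list medians of -0.28 at 25 °C and -1.03 at 40 °C. Over all genes the share was 42.9%.

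Stress regulators and heat shock genes differed the other way. All 9 kept WRKY and NAC factors had a called change that was more positive at 40 °C, and 8 of the 9 did so with values below log2 4 set to 4. NAC067, whose 0H means lay under log2 4 at both temperatures, had changes of 5.12 at 25 °C and 6.91 at 40 °C with values set to 4. All 4 DREB genes were more positive at 40 °C, DREB1B with 3.78 at 25 °C and 6.5 at 40 °C with values set to 4. In the oxylipin list 6 of 8 were more positive at 40 °C, OPR1 with 6.05 at 25 °C and 7.71 at 40 °C with values set to 4, a setting in which 5 were called. Small heat shock genes were more negative at 25 °C in 14 of 17, with list medians of -1.40 at 25 °C and -0.52 at 40 °C, and HSFs in 11 of 19. HSFA2C fell at 25 °C, at 4.15, 3.96 and 4.49 at 4H, against 5.92, 5.90 and 5.53 at 0H, and rose at 40 °C (changes -1.58 and 1.84, difference -3.42, SE 0.22, limma adjusted p = 5.09e-08). The formin gene FH16 rose at both temperatures, by 1.54 at 25 °C and by 4.85 at 40 °C.

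**Figure D5:**
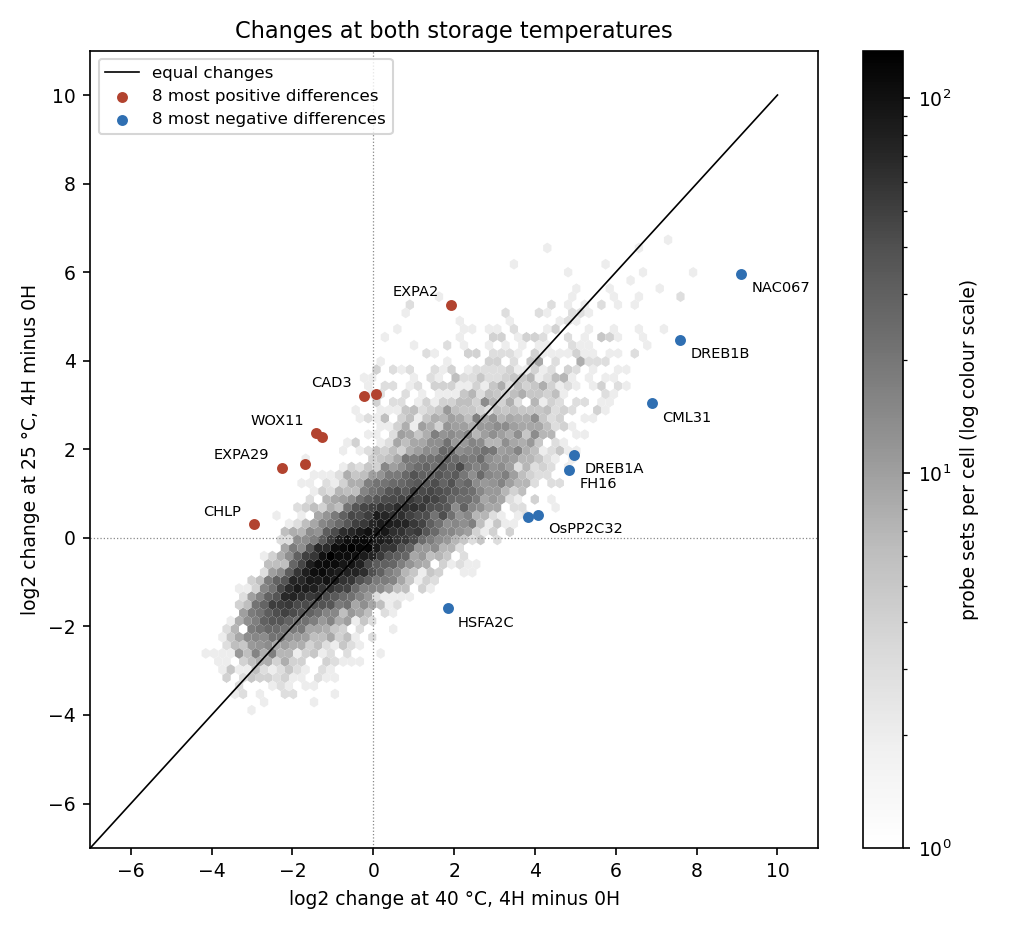
Log2 change (4H minus 0H) at 25 °C on the vertical axis against the change at 40 °C on the horizontal axis for the kept probe sets, shown as shaded cells whose grey gives their number on a log colour scale, with a line of equal changes and the 8 named genes with the largest differences each way as points. The cells run along a rising diagonal (correlation 0.831), although 65% of the probe sets had a called difference from equal changes. EXPA29 and WOX11 lie above 0 at 25 °C and below 0 at 40 °C, and HSFA2C lies the other way.

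Some falls had no called difference between the temperatures. PARP3 had changes of -2.89 at 25 °C and -2.87 at 40 °C and SAPK3 had -2.94 and -3.14, neither difference being called. The missing calls do not show equal changes, and without 40 °C 4H replicate 1 the difference of SAPK3 was called (0.34 in place of 0.2, limma adjusted p = 0.039). In the LEA and dehydrin list 3 of 10 differences were called, all less negative at 25 °C, with list medians of -0.64 at 25 °C and -0.72 at 40 °C. DNA repair genes had 8 of 13 differences called, near the 67.9% over all genes, all toward the more positive change at 25 °C, with medians of -1.36 at 25 °C and -1.94 at 40 °C.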

How the data were processed

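RNA of 12 samples was measured on Affymetrix Rice Genome arrays, and the 6 arrays of seed kept at 25 °C carry the comparison. The authors deposited log2 signals made with GCRMA (per the submitters' processing notes, without a version), which corrects background and normalizes across arrays. That the logarithm has base 2 was taken from the range of the values. Arrays give no read depth, and their number limits the precision. Control probe sets (123) were left out, and 17650 of 57258 others passed the filter of log2 4 in at least 3 arrays. Group means were fitted to all 12 arrays with limma 3.58.1 (R 4.3.3, lmFit and eBayes with trend), so that the groups share 1 estimate of spread with 8 residual degrees of freedom. P-values were adjusted by Benjamini-Hochberg over all kept probe sets. The scripts were tested on simulated data. Control measures were compared by a two-sided exact permutation test.

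Probe sets were named from the platform annotation, in which 22436 have 1 gene, 95 several and 34850 are not listed. Of 17905 genes in it, 2392 had a usable symbol and 1656 of those were tested. The gene chosen for a name had the probe set with the highest mean. Names could come from each of the 57 gene lists (up to 4 called genes each way with the lowest p, or any member of a list of 12 or fewer). Further names are the 15 largest rises and falls that did not overlap, the 8 largest differences from 40 °C each way, the 5 smallest changes with both means over log2 10, and the tissue markers. ABA8OX2, CAT-A, CDKA-1, CIN1, HSFA1, HSP16.9A, PCNA, QHB and SAPK6 were named after their values were seen. A rule naming the 10 highest means was not used, since signals of different probe sets cannot be compared. The members and lists were chosen with earlier results of these data known. The lists' symbols were picked from the annotation, and a gene misplaced in DNA repair was taken out and a pair of symbols in the dormancy list replaced after values had been seen.

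Same-numbered 4H and 0H replicates deviated together across probe sets, with correlations of 0.229, 0.126 and 0.423. The numbers were therefore read as pairs in the replicate block, an alternative, while the main fit held no replicate term. However, 4H replicate 1 with 0H replicate 2 (0.192) and 4H replicate 2 with 0H replicate 1 (0.205) correlated about as much. The pairing comes from these data and from the shared numbers in the labels, which name no shared batch. Alternatives covered the filter, scaling, array weights, the trend, the replicate block and leaving out each array.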

Additional observations from a re-analysis of the deposited data

Results flagged for a closer look

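Of 45 genes with the largest changes at 25 °C or the largest differences from 40 °C, 41 had a change that differed between the storage temperatures (limma, adjusted p under 0.05 for the difference itself). Each value below is the log2 change at 25 °C minus that at 40 °C. The genes with the largest differences were chosen for them, and 65% of all kept probe sets had a called difference. No explanation of these differences was tested.

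Among genes that were higher at 4H, the change at 25 °C was the more positive one for NSHB2 (2.60), NSHB1 (2.51), GH3.2 (2.25), RIXI (2.65), cap2 (1.23), FBA1 (1.46) and AMY1A (1.5). It was the smaller rise for osysl12 (-1.67), OsOPR5 (-1.62), OPR1 (-2.22), OsOPR4 (-2.06) and NAC067 (-3.13). Among genes that fell, the fall at 25 °C was the deeper one for HSP17.8 (-2.19), cob (-2.27), HSP21.9 (-1.85), FTSH6 (-1.44), HSP16.0 (-1.18), MSH5 (-0.76), HSFB2B (-1.62), CLPB1 (-1.62) and HSP16.6 (-1.01). It was the shallower one for AMY3A (1.19), HSFC2A (0.79), ETR4 (1.07), ILL8 (0.78) and APX8 (0.74). AMY3A, ILL8 and APX8 had 4H means below log2 4 at both temperatures, and with every value below log2 4 set to 4 their differences were 0.75, -0.0675 and 0.34, that of ILL8 not called (limma adjusted p = 0.753). In the same setting the differences of NAC067 and osysl12 were -1.79 and -0.68. The difference of OsOPR5 was not called when every value below log2 4 was set to 4 (limma adjusted p = 0.634). That of HSP17.8 was not called without 40 °C 0H replicate 2 or without 40 °C 4H replicate 1 (limma adjusted p = 0.0507 and 0.052), and that of HSP16.6 was not called without the trend and in 9 of the 12 fits that left out an array.

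The most positive differences were those of EXPA29 (3.85), WOX11 (3.77), AtbHLH004 (3.56), CAD3 (3.44), OsYAB7 (3.37), EXPA2 (3.33), CHLP (3.26) and EXPB3 (3.2). With values below log2 4 set to 4 those of AtbHLH004, CAD3 and EXPB3 were 0.56, 1.44 and 0.48, all still called. In that setting those of OsYAB7, EXPA2 and CHLP were 2.26, 2.63 and 2.71, also called. The most negative ones, beside that of NAC067, were those of CML31 (-3.85), OsPP2C32 (-3.55), HSFA2C (-3.42), KIN8B (-3.35), FH16 (-3.31), DREB1B (-3.11) and DREB1A (-3.09). With values set to 4 the difference of KIN8B was -1.72. KIN8B lay below log2 4 in all 6 arrays at 25 °C, and its change there was not called (limma adjusted p = 0.0555, and 0.042 with the replicate block on 12 arrays). OsPP2C32 was called at 25 °C with a change of 0.53 (limma adjusted p = 0.0309), a call that some of the alternatives lost.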

How the results depend on the processing

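The main count of 14457 called probe sets was 13706 to 14945 under quantile normalization, median centring, array weights, a fit of the 6 arrays alone, the replicate block or values below log2 4 set to 4, and 20270 without a filter. With the filter at log2 6, which keeps 11081 probe sets, 9525 were called, 4546 of them higher, with 2722 over 2-fold higher and 2282 over 2-fold lower. Leaving out each array at 25 °C in turn gave 13989 to 14352 called, 6730 to 7050 higher and 7161 to 7362 lower. Over 2-fold, 4109 to 4293 were then higher and 3410 to 3619 lower. These counts were not taken from fits without a 40 °C array. Leaving out each of the 12 arrays in turn gave 10889 to 11540 called differences from 40 °C. Higher and lower calls were 6570 and 8017 after median centring and 6600 and 8001 after quantile normalization, against 7044 and 7413. With the replicate block 14597 probe sets were called on 12 arrays and 14588 on the 6 arrays. The block on 12 arrays changed the call of 5 storage genes, GBSS1, ATG12, CHLP, KIN8B and AHP2 and of the difference of EXPB4 from 40 °C, and the block on the 6 arrays alone also gave calls to GluB5, PROLM25, SPY and NAC071. GOS2 and OsPP2C32 lost theirs on the 6 arrays with or without the block. No other call of the 470 genes changed in the blocked fits. Of 8339 gene values tried over 470 genes, 8151 kept call and direction, 89 lost the call, 97 gained it and 2 reversed. The call between the labels was lost at least once in 24 genes. The call of the difference from 40 °C was lost at least once in OsOPR5, HSP17.8 and HSP16.6. ARF reversed to 0.17 after quantile normalization. The difference of ILL8 from 40 °C reversed to -0.0675 with values below log2 4 set to 4. The cause was not tested. Of 1824 list counts, 74 moved by over 1.5 times. Without 4H replicate 3, 17 of 57 list medians moved by over 0.1, at most by 0.342. An alternative on promoter motifs was not run, since no sequences were used here. Signals under log2 4 limit the sizes of the largest changes to bounds.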
